A study of Mus musculus with 6 samples.

Results

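The fatty acid binding proteins (FABPs) were followed on a quantitative PCR plate of fatty acid metabolism genes, in cultured mouse adipocytes with and without recombinant murine interleukin-15 (rmIL-15). All wells whose symbol begins with Fabp were taken, which gave 6 wells (*Fabp1* to *Fabp6*) of the 84 gene wells on the plate. Of these, *Fabp2*, *Fabp3*, *Fabp4* and *Fabp5* could be tested, among 74 genes for which every sample of 1 group or of both (3 samples a group) had a Ct under 35. *Fabp1* and *Fabp6* had no well under a Ct of 35 in any sample. The Ct is the PCR cycle at which fluorescence crosses a threshold, so a lower Ct stands for more template.

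The treated group held 3 samples of 3T3-L1 cells that received rmIL-15 at 500 ng/ml over 24 hours (n = 3), and the untreated group held 3 samples given 0 ng/ml (n = 3). 3T3-L1 is an established mouse fibroblast line that turns into fat cells in culture. Both groups had been induced with insulin, dexamethasone, IBMX and fetal bovine serum. By the study's methods the cells were differentiated at day 14, and treatment started then. Each plate received cDNA from 400 ng of RNA. All cells came from 1 line, and the labels do not say that the replicates were separate cultures, so the p-values reflect sample-to-sample spread that may be technical. Group membership was taken from the sample titles and the group names of the tables. Another label names the groups the opposite way, and every direction given here rests on the titles.

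FABPs are small soluble proteins that bind long-chain fatty acids and related lipids and carry them through the cytosol to membranes, enzymes and nuclear receptors. Each member is known for its own tissues. FABP4, also called aP2, is among the most abundant proteins of fat cells, where FABP5 accompanies it. FABP3 is the heart and muscle form, FABP1 the liver form, FABP2 the intestinal form and FABP6 the bile acid binding protein of the ileum.

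In the RefSeq annotation GRCm38.p6, all 6 wells matched by RefSeq identifier under the same symbol. That annotation names 9 protein-coding genes beginning with Fabp, and *Fabp7*, *Fabp9* and *Fabp12* had no well on the plate. *Fabp5* and *Fabp4* are close neighbours there, with 2 protein-coding genes, *Fabp9* and *Pmp2*, between them. It also lists 2 pseudogenes by symbol, *Fabp3-ps1* and *Fabp5l2*. Primer sequences were not used here, so whether those copies were amplified was not tested.

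The 6 plates were alike in their controls. The median Ct of the tested genes lay between 25.1 and 25.8, and between 71 and 74 gene wells of a plate were under 35. The positive PCR control averaged 19.2 to 19.3 cycles and the reverse transcription control 22.0 to 22.8 cycles. The genomic DNA control crossed the threshold at 36.6 to 39.8 cycles, with 1 well undetermined. The plates with the highest median Ct were rmIL-15 replicate 1 at 25.6 and untreated replicate 3 at 25.8. A sample has a single reading of each gene, and depth in the sense of read counts does not apply.

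The adipocyte label was set against its markers on the plate. All 6 adipocyte markers (*Fabp4*, *Lpl*, *Lipe*, *Slc27a1*, *Acsl1* and *Gpd1*) were under a Ct of 35 in all 6 samples, and their summed log2 level over the Gapdh well was 9.23 to 9.62 with rmIL-15 and 9.35 to 9.52 without it. None of the 4 hepatocyte markers was under 35 in all 6 samples, and *Fabp1* and *Slc27a2* were over 35 or undetermined in every sample. Of the 2 enterocyte markers, *Fabp6* was over 35 or undetermined in every sample and *Fabp2* in untreated replicates 2 and 3. No summed level is given for these lists, since it would rest on wells at the Ct limit. The muscle markers *Fabp3* and *Cpt1b* summed to -5.09 to -4.64 with rmIL-15 and -4.95 to -4.08 untreated, and the 2 neural markers with a well to -2.79 to -2.12 with rmIL-15 and -2.72 to -1.49 untreated. The 2 muscle markers and the 2 neural markers with a well were also under 35 in all 6 samples. Being under 35 therefore did not set the adipocyte list apart from these lists. The ranges of the adipocyte, muscle and neural lists each overlapped between the groups. These sums add linear levels, so the adipocyte sum mostly reflects *Fabp4* and *Lpl*. Single adipocyte markers differed in direction. Their log2 fold change, rmIL-15 over untreated, was 0.12 for *Fabp4*, -0.31 for *Lpl* and 0.51 for *Lipe*. It was 0.39 for *Slc27a1*, -0.52 for *Acsl1* and -0.073 for *Gpd1*. In bulk RNA, fewer cells of a type and less RNA per cell cannot be told apart.

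*Fabp4*, the adipocyte FABP, gave the strongest signal of the plate. Its raw Ct was 16.83, 16.54 and 16.43 in rmIL-15 replicates 1, 2 and 3, and 16.63, 16.53 and 17.11 in untreated replicates 1, 2 and 3. It was the gene with the lowest Ct of all 84 in each of the 6 samples. *Lpl*, the lipoprotein lipase that frees fatty acids from circulating triglyceride, was next, with a mean Ct of 17.8 over the 6 samples against 16.7 for *Fabp4*.

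*Fabp5*, the second FABP of fat cells, had a raw Ct of 21.53, 20.62 and 20.92 with rmIL-15 and of 20.42, 20.66 and 21.50 untreated, and ranked 3 or 4 of 84 in every sample. Its Ct was higher than that of *Fabp4* in all 6 samples, by 3.79 to 4.7 cycles (mean 4.26 ± 0.325, SD, n = 6). No primer efficiency was given. If every cycle doubled the product, the gap would be 13.8- to 26.0-fold, and it compares 2 amplicons rather than 2 molecule numbers. The highest *Fabp5* Ct in each group fell on the plate with that group's highest median Ct.

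*Fabp3*, the heart and muscle form, was far lower and still measurable. Its raw Ct was 31.87, 30.99 and 31.66 with rmIL-15 and 31.73, 31.29 and 31.30 untreated, ranks 67 to 70 of 84. It lay 9.8 to 11.3 cycles above *Fabp5* (mean 10.5 ± 0.501, SD, n = 6), which is 894- to 2540-fold at a doubling per cycle. Of the Fabp wells, *Fabp3*, *Fabp4* and *Fabp5*, 3 in number, were under 35 in all 6 samples.

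*Fabp2*, the intestinal form, sat at the limit of measurement. Its raw Ct was 34.98, 33.56 and 33.51 with rmIL-15. In untreated cells it was 34.17 and 38.97 in replicates 1 and 2 and undetermined in replicate 3. Thus 3 of 3 rmIL-15 wells and 1 of 3 untreated wells were under 35, and rmIL-15 replicate 1 passed by a margin smaller than the spread between replicates. The same split admitted *Fabp2* to the tested genes, so no difference in detection is drawn from it. With values over 35 set to 35, *Fabp2* followed *Fabp3* by 1.85 to 3.71 cycles (mean 2.9 ± 0.744, SD, n = 6).

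*Fabp1* and *Fabp6* came up late or not at all. *Fabp1* had a raw Ct of 37.43, 38.73 and 36.41 with rmIL-15, and of 38.41, 38.18 and undetermined untreated. *Fabp6* had a Ct of 35.59 in rmIL-15 replicate 1 and 37.09 in untreated replicate 1, and was undetermined in the other 4 samples. These values fall in or near the range of the genomic DNA control, and no level is given for either gene. The order from lowest to highest Ct was *Fabp4*, *Fabp5*, *Fabp3* and *Fabp2* in all 6 samples, with gaps in each sample larger than the SD of that gap.

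**Figure D1:**
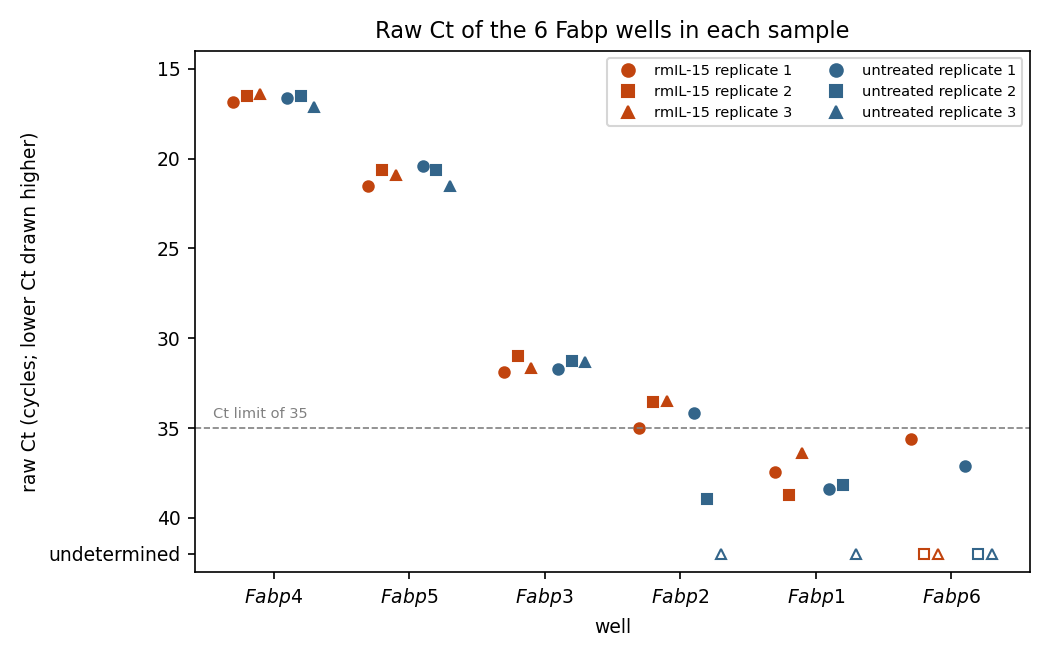
Raw Ct in cycles, with lower Ct drawn higher, of the 6 Fabp wells in each sample, rmIL-15 left of untreated within each well; open symbols are undetermined wells and the dashed line is the Ct limit of 35. *Fabp4* lies between 16.43 and 17.11 and *Fabp5* between 20.42 and 21.53, *Fabp3* between 30.99 and 31.87, and only *Fabp2* straddles the limit.

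To ask whether Fabp transcript levels differed after rmIL-15, the raw Ct was compared first, before any reference was subtracted. The mean raw Ct of *Fabp4* was 16.6 ± 0.205 with rmIL-15 and 16.8 ± 0.31 untreated, a difference of -0.15 cycles (SD, n = 3 each; exact two-sided permutation test, p = 0.6). That of *Fabp5* was 21.0 ± 0.463 with rmIL-15 and 20.9 ± 0.565 untreated, a difference of 0.16 (exact p = 0.7). *Fabp3* differed by 0.065 (exact p = 0.9), and *Fabp2*, with values over 35 set to 35, by -0.71 (exact p = 0.2). With 3 samples a group, such a test cannot go below 0.1. The 5 reference wells differed by -0.38 cycles for *Hsp90ab1* (exact p = 0.4) and by -0.045 to 0.074 for *Actb*, *B2m*, *Gapdh* and *Gusb* (exact p = 0.8 to 0.9). The groups overlapped in raw Ct for all 4 Fabp genes and all 5 reference wells.

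Each level was then expressed as the Ct of the well annotated *Gapdh* minus the Ct of the gene, a log2 scale. That well crossed the threshold at 25.6, 25.2 and 25.5 cycles with rmIL-15 and at 25.2, 25.2 and 26.0 untreated. As many as 38 genes of the plate had a lower mean Ct, which is unusual for *Gapdh*, a glycolytic enzyme of high expression. The annotation of this well is therefore in doubt, and the other references are shown beside it.

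The *Fabp4* level was 8.80, 8.62 and 9.08 with rmIL-15 and 8.62, 8.65 and 8.86 untreated (mean 8.83 ± 0.23 with rmIL-15 and 8.71 ± 0.13 untreated, SD, n = 3 each). The groups overlapped, and only rmIL-15 replicate 3 lay above every untreated sample. The log2 fold change was 0.12 (SE 0.16, 95% interval -0.27 to 0.52; limma with Benjamini-Hochberg adjustment over 74 genes, adjusted p = 0.822). In linear terms this was 1.09-fold, with an interval of 0.83 to 1.43.

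The *Fabp5* level was 4.10, 4.54 and 4.60 with rmIL-15 and 4.83, 4.52 and 4.47 untreated (mean 4.41 ± 0.27 with rmIL-15 and 4.61 ± 0.19 untreated, SD, n = 3 each). The lowest value was that of rmIL-15 replicate 1 and the highest that of untreated replicate 1, while the other 4 lay close together. The log2 fold change was -0.19 (SE 0.19, 95% interval -0.65 to 0.27; limma, adjusted p = 0.715), or 0.874-fold with an interval of 0.636 to 1.2. It rested on the first replicate of each group: without rmIL-15 replicate 1 it was -0.037, and without untreated replicate 1 it was -0.085.

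The *Fabp3* level was -6.24, -5.83 and -6.14 with rmIL-15 and -6.49, -6.11 and -5.33 untreated (mean -6.07 ± 0.21 with rmIL-15 and -5.98 ± 0.59 untreated, SD, n = 3 each). All 3 rmIL-15 values fell inside the untreated range. The log2 fold change was -0.094 (SE 0.32, 95% interval -0.87 to 0.69; limma, adjusted p = 0.949), and without untreated replicate 3 it was 0.23, of the opposite sign.

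The *Fabp2* level, with Ct values over 35 set to 35, was -9.35, -8.40 and -7.99 with rmIL-15 and -8.93, -9.82 and -9.03 untreated (mean -8.58 ± 0.70 with rmIL-15 and -9.26 ± 0.49 untreated, SD, n = 3 each). Replicates 2 and 3 of rmIL-15 were above all untreated samples and replicate 1 was not. The log2 fold change was 0.68 (SE 0.42, 95% interval -0.36 to 1.72; limma, adjusted p = 0.599). This gene entered the fit only through the rmIL-15 group, and untreated replicates 2 and 3 carry the limit rather than a measured value. Its p-values are therefore given as a description, and no conclusion is drawn from them. Single samples moved the value in both directions. The log2 fold change was 0.38 without rmIL-15 replicate 3 and 0.4 without untreated replicate 2 (limma, unadjusted p = 0.41 and 0.397), and 1.07 without rmIL-15 replicate 1 (limma, unadjusted p = 0.0267, adjusted p = 0.659). Without both rmIL-15 replicate 1 and untreated replicate 3 it was 1.18 (limma, adjusted p = 0.404), and with no Ct limit, which leaves untreated replicate 3 missing, it was 2.78.

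**Figure D2:**
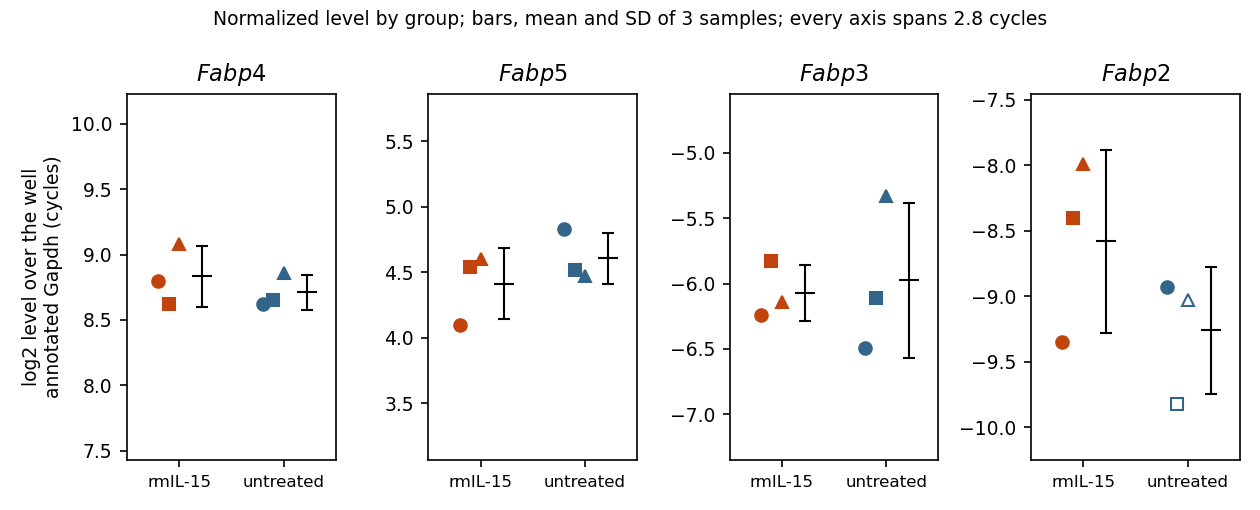
Log2 level over the well annotated *Gapdh*, in cycles, of the 4 tested genes, with rmIL-15 left of untreated; circles, squares and triangles are replicates 1, 2 and 3, open symbols are wells set to the Ct limit, and bars are mean and SD of 3 samples. The groups overlap in all 4 panels (*Fabp4*: 8.62 to 9.08 with rmIL-15 and 8.62 to 8.86 untreated).

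None of the 4 tested Fabp genes passed an adjusted p of 0.05 (0 of 4), as did none of the 74 genes tested (0%). At an unadjusted p under 0.05, 0 of 4 passed by limma, beside 7 of 74 genes (9.46%), and the methods' t-test gave 0 of 4 as well. Ordered by p among the 74 genes, *Fabp2* came at 19, *Fabp5* at 35, *Fabp4* at 41 and *Fabp3* at 58. The median log2 fold change over all 74 genes was -0.11. A p above the threshold does not show equal levels. The intervals leave room for changes of *Fabp4* and *Fabp5* up to the bounds given above, and for wider ones of *Fabp3* (0.546- to 1.61-fold). The interval of *Fabp2* (0.778- to 3.3-fold) takes untreated wells set to the Ct limit as measured values, so it does not bound the change. With no Ct limit, the log2 fold change of *Fabp2* was 2.78, above the upper end of that interval (1.72 in log2).

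The reference well moved the estimates little, apart from *Hsp90ab1*. With *Actb*, *Gusb*, the mean of the 5 wells, the plate median or the authors' own normalized values, the log2 fold change was 0.075 to 0.23 for *Fabp4*, -0.24 to -0.091 for *Fabp5* and 0.63 to 0.78 for *Fabp2*. For *Fabp3* it was -0.14 to 0.0094, the last of these with *Gusb*. With *Hsp90ab1* it was -0.22 for *Fabp4*, -0.54 for *Fabp5*, -0.44 for *Fabp3* and 0.33 for *Fabp2*. The median of all 74 genes was -0.46 with that well, and relative to it *Fabp4* was still higher.

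**Figure D3:**
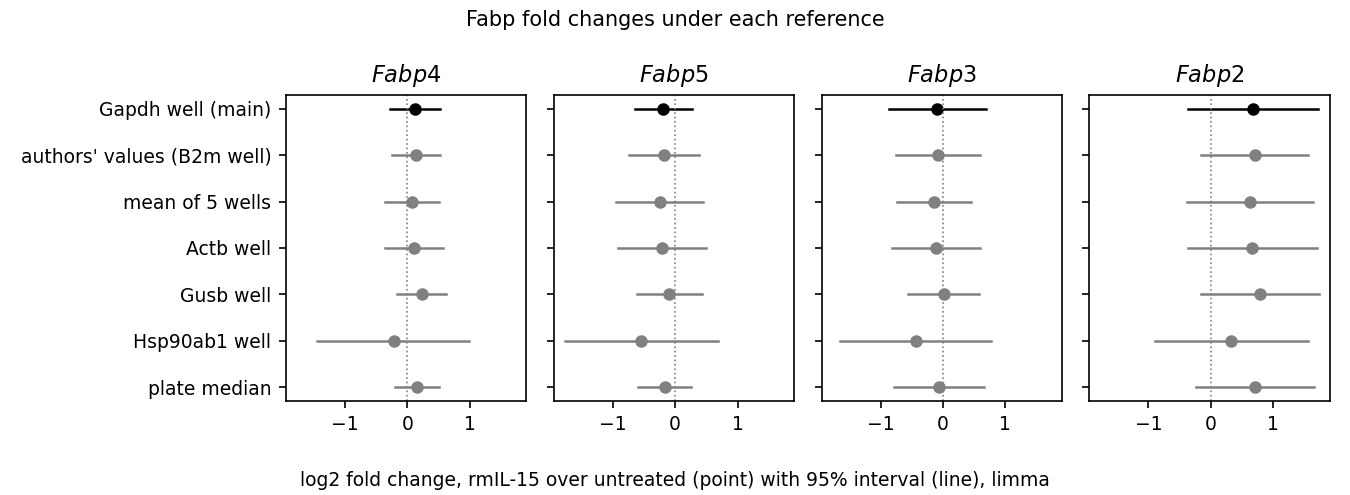
Log2 fold change, rmIL-15 over untreated (point), with its 95% interval from limma (line), for the 4 tested genes under each reference. Every interval spans 0, and the widest for *Fabp4* belongs to *Hsp90ab1* (-1.44 to 0.99).

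The spread between replicates differed among the 4 genes. Pooled within groups, the SD of the log2 level was 0.19 for *Fabp4*, 0.24 for *Fabp5*, 0.44 for *Fabp3* and 0.6 for *Fabp2*, beside a median of 0.22 over the 74 genes. In raw Ct the SD was 0.26 for *Fabp4* and 0.52 for *Fabp5*, beside a median of 0.4. The spread of *Fabp5* was thus above that of the typical gene before the reference was subtracted and close to it afterwards.

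Differences between 2 wells of the same plate need no reference. Of the 6 pairs among the tested Fabp genes, those without *Fabp2* are given with exact two-sided permutation tests, with p not adjusted. The Ct of *Fabp5* minus that of *Fabp4* was 4.7, 4.08 and 4.48 with rmIL-15 and 3.79, 4.13 and 4.39 untreated. The groups overlapped, and the mean difference was 4.42 ± 0.313 with rmIL-15 and 4.1 ± 0.3 untreated, a shift of 0.32 cycles (SD, n = 3 each; exact p = 0.3). The shift was 0.18 without rmIL-15 replicate 1 and 0.16 without untreated replicate 1. *Fabp4* minus *Fabp3* shifted by -0.22 cycles (exact p = 0.6), and *Fabp5* minus *Fabp3* by 0.1 (exact p = 0.8). Both took the opposite sign without 1 sample, at 0.03 for *Fabp4* minus *Fabp3* without untreated replicate 3 and at -0.26 for *Fabp5* minus *Fabp3* without untreated replicate 1.

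The pairs with *Fabp2* rest on untreated wells set to the Ct limit and on a gene that was admitted through the rmIL-15 group, so their shifts are given as a description. *Fabp3* minus *Fabp2* shifted by 0.77 cycles, *Fabp4* minus *Fabp2* by 0.56 and *Fabp5* minus *Fabp2* by 0.87. With 1 sample left out these ran over 0.44 to 1.19, 0.3 to 0.92 and 0.63 to 1.1 cycles. With no Ct limit, and so without the undetermined well of untreated replicate 3, they were 2.55, 2.58 and 3.04 cycles. The size of these 3 shifts was therefore set largely by how late wells were treated.

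The genes whose Ct ran most nearly parallel to each Fabp gene were sought as those with the smallest SD, over the 6 samples, of the Ct difference within a plate, among 68 other genes under 35 in all samples. For *Fabp5* these were *Decr1*, a reductase for the beta-oxidation of unsaturated fatty acids (SD 0.083 cycles), and *Eci2*, an isomerase of the same process (SD 0.084), beside a median of 0.29 over the 68 genes. *Fabp4* ranked 41 in that order, with an SD of 0.32. For *Fabp4* the nearest were *Pecr*, a peroxisomal enoyl-CoA reductase (SD 0.13), and *Crot*, the peroxisomal carnitine octanoyltransferase (SD 0.15), beside a median of 0.31. For *Fabp3* they were *Gpd2* and *Prkab2*, a mitochondrial glycerol phosphate dehydrogenase and a subunit of the AMP-activated kinase (SD 0.27 each, median 0.42). *Fabp2*, not under 35 in every sample, was not ranked. None of the 3 had another Fabp gene among its nearest. The wells of a plate share cDNA input, and these are descriptions over 6 samples.

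Other steps of fatty acid handling on the plate were read beside the binding proteins. Of 15 listed genes 11 could be tested, and 0 passed an adjusted p under 0.05. At an unadjusted p under 0.05, 1 was higher and 2 were lower with rmIL-15, beside 1 higher (1.35%) and 6 lower (8.11%) of all 74 genes. Their median log2 fold change was 0.057 beside -0.11 over all 74 genes. Of the 4 tested uptake genes, 3 had a positive and 1 a negative log2 fold change (median 0.28). Of the 4 activation genes, 1 was positive and 3 were negative (median -0.41), and of the 3 lipolysis genes, 2 were positive and 1 was negative (median 0.057). The genes named from these lists are the one with the lowest Ct and the one with the smallest p in each. *Lpl*, the 1 uptake gene with a negative value, had a log2 fold change of -0.31 (limma, unadjusted p = 0.0479, adjusted p = 0.479). The acyl-CoA synthetases *Acsl1* and *Acsl3*, which activate fatty acids for further use, had -0.52 (adjusted p = 0.576) and -0.51 (unadjusted p = 0.0146, adjusted p = 0.472). *Lipe*, the hormone-sensitive lipase that FABP4 is known to bind, had 0.51 (unadjusted p = 0.02, adjusted p = 0.472).

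Set against *Fabp4* on the same plate, these 4 genes were described without a test, since they were chosen with their values known, in part for a small p. The groups did not overlap for 3 of the 4, beside 394 of all 2701 pairs of tested genes (14.6%). All 4 differences share the *Fabp4* well, and the genes were picked in part for a small p. The share over all pairs is therefore not a matched background for them, and no excess is read from the 3 of 4. Over the other 73 tested genes, the Ct difference from *Fabp4* shifted by a median of 0.24 cycles. *Lpl* minus *Fabp4* was 1.48, 1.23 and 1.46 cycles with rmIL-15 and 0.812, 0.973 and 1.07 untreated. The gap between the 2 strongest signals of the plate was wider by 0.44 cycles with rmIL-15. *Acsl1* minus *Fabp4* was 5.47, 5.66 and 5.82 with rmIL-15 and 5.19, 5.19 and 4.62 untreated, a shift of 0.65. *Acsl3* minus *Fabp4* was 7.87, 7.54 and 8.11 with rmIL-15 and 7.22, 7.3 and 7.11 untreated, a shift of 0.63. In both, all rmIL-15 samples lay above all untreated ones. *Lipe* minus *Fabp4* was 5.19, 5.41 and 5.78 with rmIL-15 and 5.56, 5.83 and 6.13 untreated, a shift of -0.38 with overlapping groups. With 1 sample left out at a time, the shift was between 0.37 and 0.52 for *Lpl* and 0.46 and 0.74 for *Acsl1*. It was between 0.49 and 0.78 for *Acsl3*, and -0.54 and -0.24 for *Lipe*. As the genes were chosen in part for a small p in these samples, these ranges are a description and not separate support.

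**Figure D4:**
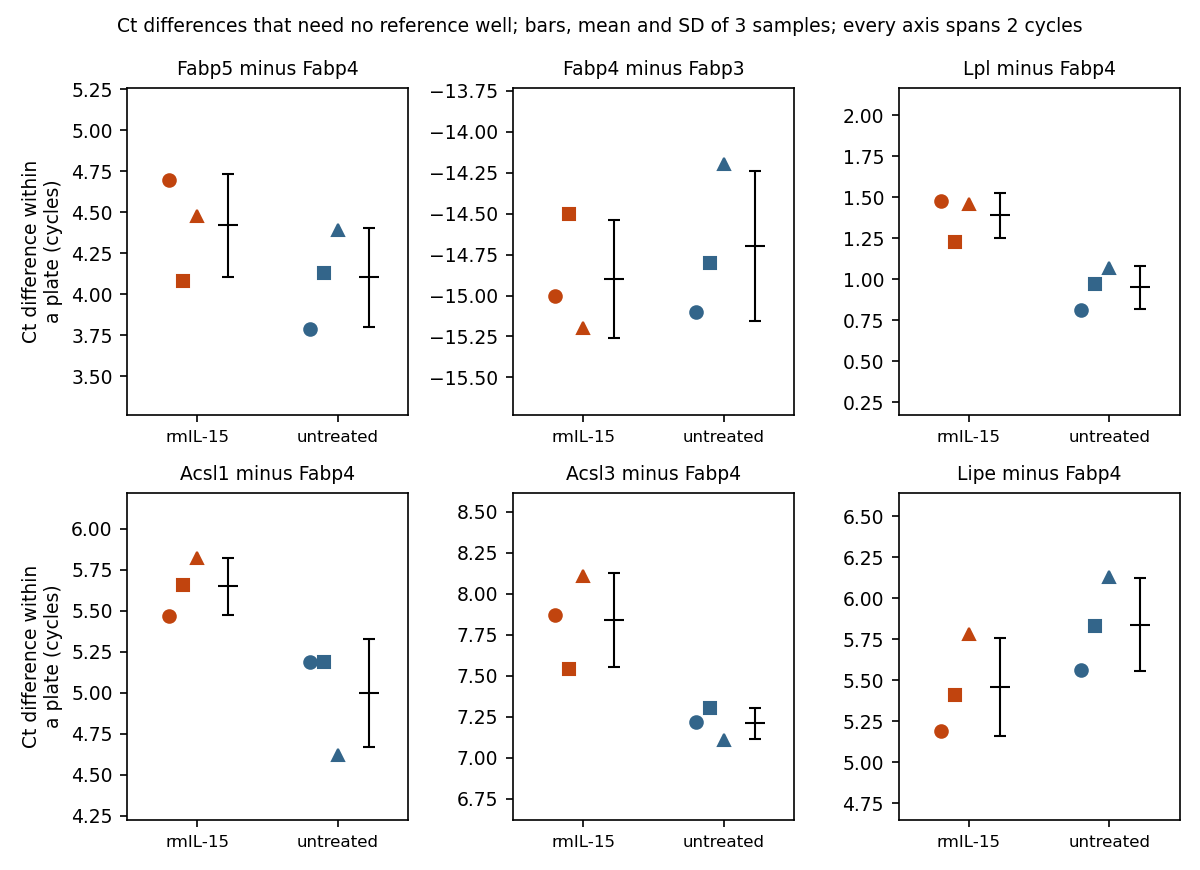
Ct differences between 2 wells of a plate, in cycles, with rmIL-15 left of untreated; circles, squares and triangles are replicates 1, 2 and 3, bars are mean and SD of 3 samples, and every axis spans the same number of cycles. *Fabp5* minus *Fabp4* overlaps between the groups, while *Lpl*, *Acsl1* and *Acsl3* minus *Fabp4* are higher in all 3 rmIL-15 samples (*Lpl*: 1.23 to 1.48 with rmIL-15 and 0.812 to 1.07 untreated).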

How the data were processed

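RNA of 3 rmIL-15 and 3 untreated samples was measured on RT2 Profiler PCR arrays for mouse fatty acid metabolism with SYBR green. The deposited raw table holds Ct in cycles. The deposited normalized table holds log2-scale values. They equal the Ct, with values over 35 set to 35, minus the Ct of the well annotated *B2m* on the same plate. The largest deviation was 3.6e-15 cycles over 504 values. The study's methods name GAPDH. Whether the labels of the reference wells are right was not tested, so a change of reference gene and a wrong label cannot be told apart. A further table of the authors' fold changes and p-values was not used, nor were 6 further per-sample columns.

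Here Ct values over 35 or undetermined were set to 35 and subtracted from the Ct of the well annotated *Gapdh*. Genes with every sample of a group under 35 (3 samples, either group) entered limma 3.58.1 in R 4.3.3 (lmFit and eBayes) with Benjamini-Hochberg adjustment over 74 genes. The script was tested on simulated data first. Exact permutation tests over samples were two-sided (scipy 1.17.1). Folds assume a doubling per cycle. The precision is limited by 3 samples a group.

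Named genes were all Fabp wells, the 2 genes nearest to each in pattern, the reference wells, and, from each fatty acid handling list, the genes of lowest mean Ct and smallest p. Members and lists were chosen with earlier results of these data known. Alternatives were other references, Ct limits, filters and tests, a replicate block and leaving out samples. Leaving out both plates of highest median Ct, and the differences of handling genes from *Fabp4*, were added after seeing the data. The files name no genome build, so no coordinates are given. RefSeq GRCm38.p6 served for names and neighbours only.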

Additional observations from a re-analysis of the deposited data

How the results depend on the processing

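No Fabp gene passed an adjusted p of 0.05 under any of 20 alternatives, and the adjusted p of limma or of the methods' t-test ranged over 0.404 to 0.902 for *Fabp2*, 0.617 to 0.991 for *Fabp3*, 0.617 to 0.994 for *Fabp4* and 0.617 to 0.931 for *Fabp5*. The log2 fold change of *Fabp5* was negative in all 20 (-0.54 to -0.037, the last without rmIL-15 replicate 1). That of *Fabp2* was positive in the 18 that gave a value (0.33 to 2.78). *Fabp2* was admitted to the tested genes only through the rmIL-15 group. Its late untreated wells were set to the Ct limit wherever a limit was used. The repeated sign of *Fabp2* and its p-values are therefore a description and not separate support for a change. *Fabp2* gave no value with a Ct limit of 33 or with genes under 35 in all 6 samples. *Fabp3* was -0.094 and turned to 0.0094 with *Gusb* alone. *Fabp4* was 0.12 and turned to -0.22 with *Hsp90ab1* alone. With 1 sample left out, *Fabp3* ranged from -0.35 to 0.23 (0.23 without untreated replicate 3) and *Fabp4* from -0.0011 to 0.23 (-0.0011 without rmIL-15 replicate 3). Likewise, the shift of *Fabp4* minus *Fabp3* ranged from -0.44 to 0.03 and that of *Fabp5* minus *Fabp3* from -0.26 to 0.49. Without both rmIL-15 replicate 1 and untreated replicate 3, *Fabp3* was 0.31 and *Fabp4* minus *Fabp3* 0.1. The count of Fabp genes past an unadjusted p of 0.05 was 0, and 1 (*Fabp2*) without rmIL-15 replicate 1 (4 of all 74 genes, 5.41%) and without both that sample and untreated replicate 3 (7 of 74, 9.46%). The cause of these changes was not tested. With the replicate block, *Fabp2* was 0.68 (adjusted p = 0.769), *Fabp3* -0.094, *Fabp4* 0.12 and *Fabp5* -0.19, no call on a Fabp gene changed, and 4 genes of 74 were past an unadjusted p of 0.05 against 7 without it. The deviations of same-numbered samples from their group means correlated with r = -0.267, 0.0916 and -0.275 over 74 genes. The labels do not say whether the numbers pair the samples, and with 3 samples a group these values cannot decide it. A Ct near 35 limits *Fabp2*, *Fabp1* and *Fabp6*.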
